A study of Mus musculus with 15 samples.

Results

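Cyclins D1, D2 and D3 (Ccnd1, Ccnd2, Ccnd3) and the genes through which they act on the retinoblastoma protein were followed in mouse embryonic stem cells after knockdown of Tet1 or Sin3A. The group holds 10 of the 18784 genes with a symbol on the arrays: the 3 D-type cyclins, their kinases Cdk4 and Cdk6, the inhibitor Cdkn1b, the 3 pocket proteins Rb1, Rbl1 and Rbl2, and the transcription factor E2f1. The genes were found by symbol, and each had 1 probe set among the 21212 measured. The genes were chosen by pathway with results of these arrays already known, among them the changes of Ccnd2 and E2f1 under both Tet1 hairpins, so those 4 values are given below as a description without a p-value, and nothing is read from counts that hold them. The cells were E14TG2a.4, a feeder-independent line kept on gelatin with leukaemia inhibitory factor and used at passage 17. Every group had received a pLKO.1 lentivirus and puromycin at 2 µg per ml, begun 36 hours after transduction and kept for 72 hours. The groups were Tet1 shRNA 4, Tet1 shRNA 5 and a scrambled shRNA in a Tet1 set of 9 arrays, and Sin3A shRNA and its own scrambled shRNA in a Sin3A set of 6 arrays, with 3 arrays in each of the 5 groups. A short hairpin RNA (shRNA) silences the messenger RNA that it matches. Tet1 encodes an enzyme that oxidises methylated cytosine, and the Sin3a protein holds together a co-repressor complex with histone deacetylases.

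D-type cyclins are made when growth signals reach the cell, and they switch on CDK4 and CDK6. These kinases phosphorylate RB1 and its relatives p107 (Rbl1) and p130 (Rbl2), which releases E2F transcription factors and lets genes of DNA replication be transcribed. Mouse embryonic stem cells are known for a short G1 phase in which RB1 is largely kept phosphorylated, and D-type cyclins are known to rise when such cells differentiate.

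Start-site windows of the RefSeq annotation (build GRCm38.p6, 250 bases before to 50 bases after each start) were matched for 7 of the 10 genes, in 8 windows. The 3 windows printed here belong to genes whose levels changed under Sin3A shRNA, and they hold one searched word each. Capitals mark that word, and each strand of every window was searched. The words were the E2F words TTTCGCGC, TTTGGCGC, TTTCCCGC and TTTGCCGC, the cell cycle element TTTGAA, the E-box CACGTG and the cyclic AMP element TGACGT, and none of these words contains another. The Rbl1 window (chr2:157204485-157204784, minus strand) holds an E2F word at position -18 from the start. The Rbl2 window (chr8:91069807-91070106, plus strand) holds the cell cycle element on the opposite strand at position -201. The Ccnd3 window (chr17:47593217-47593516, plus strand) lies at a downstream start, 88416 bases inside the gene, and holds the cyclic AMP element at position -28 from that start.
Rbl1: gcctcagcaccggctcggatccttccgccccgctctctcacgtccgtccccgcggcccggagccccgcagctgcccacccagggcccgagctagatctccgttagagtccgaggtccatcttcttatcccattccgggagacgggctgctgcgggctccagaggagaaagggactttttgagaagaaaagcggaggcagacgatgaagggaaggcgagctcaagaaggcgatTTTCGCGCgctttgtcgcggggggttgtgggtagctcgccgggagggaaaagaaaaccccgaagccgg
Rbl2: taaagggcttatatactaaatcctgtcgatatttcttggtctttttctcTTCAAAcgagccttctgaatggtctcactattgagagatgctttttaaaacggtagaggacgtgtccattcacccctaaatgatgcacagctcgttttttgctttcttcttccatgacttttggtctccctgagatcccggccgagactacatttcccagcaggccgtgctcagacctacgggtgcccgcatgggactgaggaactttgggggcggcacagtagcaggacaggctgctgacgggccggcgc
Ccnd3: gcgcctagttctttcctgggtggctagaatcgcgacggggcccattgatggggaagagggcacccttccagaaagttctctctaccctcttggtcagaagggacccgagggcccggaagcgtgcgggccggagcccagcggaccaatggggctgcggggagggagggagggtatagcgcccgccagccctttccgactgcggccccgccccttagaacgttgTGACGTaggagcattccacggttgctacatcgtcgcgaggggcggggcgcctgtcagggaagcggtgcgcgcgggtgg
An E2F word was present in 2.27% of all 32851 windows of this length, the cell cycle element in 17.9%, the E-box in 7.15% and the cyclic AMP element in 7.51%. The Cdk4 window held 4 E-boxes and the Cdk6 window 1, while the Cdkn1b window and the upstream Ccnd3 window held none of the words. Cdk6 also changed under Sin3A shRNA, so its window meets the description of those printed but was left out. The E2f1 window, which lies 466 bases inside the gene, held the cyclic AMP element. A match describes letters and not a bound site.

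Values are log2 expression levels, and differences are log2 changes of a hairpin minus its scrambled shRNA with their SE. They were tested with limma, and a gene was called, and is said to have risen or fallen, at a p under 0.05 after Benjamini-Hochberg adjustment over all probe sets. The hairpins lowered their targets. Tet1 averaged 10.42 ± 0.03 on the log2 scale with Tet1 shRNA 4 and 10.09 ± 0.14 with Tet1 shRNA 5, against 12.20 ± 0.02 with scrambled shRNA (SD, n = 3 each), so it fell 3.43-fold and 4.30-fold. Sin3a averaged 9.38 ± 0.04 with Sin3A shRNA and 10.93 ± 0.06 with its scrambled shRNA (SD, n = 3 each), a 2.93-fold fall. Sin3a was also lower with Tet1 shRNA 4 (-0.27, adjusted p = 0.0147) and Tet1 shRNA 5 (-0.24, adjusted p = 0.0219), although the first call was lost without scrambled replicate 1 or shRNA 4 replicates 1 or 3 (adjusted p up to 0.0563) and the second without scrambled replicates 1 or 3 or shRNA 5 replicates 1 or 3 (up to 0.0868). Tet1 rose with Sin3A shRNA (0.31, adjusted p = 0.0068). All 10 embryonic stem cell markers examined lay above the median probe set in every group. Klf4 and Tdgf1 were higher with Tet1 shRNA 4 (0.47, adjusted p = 0.0011, and 0.23, adjusted p = 0.0202) and Tet1 shRNA 5 (0.27, adjusted p = 0.0195, and 0.20, adjusted p = 0.0387), and leaving out single arrays left 1 to 2 such calls with shRNA 4 and 0 to 2 with shRNA 5. With Sin3A shRNA Klf4 rose (0.41, adjusted p = 0.00079) and Nanog fell (-0.27, adjusted p = 0.0098). These 3 markers were named after their values were seen. Of 10 trophoblast markers 2 rose and 4 fell with Tet1 shRNA 4, 2 rose and 3 fell with Tet1 shRNA 5, and 1 rose and 4 fell with Sin3A shRNA, and of 9 neural markers 0 rose and 3 fell in each of these comparisons. Among all probe sets 6.88% rose and 4.71% fell with Tet1 shRNA 4, 8.37% and 5.46% with Tet1 shRNA 5, and 12.2% and 12.6% with Sin3A shRNA. The trophoblast genes went both ways. Their changes ran from -1.40 (Krt8) to 1.28 (Eomes) with Tet1 shRNA 4 and from -1.39 (Krt8) to 1.40 (Eomes) with Tet1 shRNA 5. With Sin3A shRNA they ran from -1.01 to 0.31, so the list mean does not describe each gene. The mean log2 level of the trophoblast list was 6.76 to 6.85 with Tet1 shRNA 4 and 6.85 to 6.88 with Tet1 shRNA 5, against 6.87 to 7.04 with scrambled shRNA, and 7.95 to 7.97 with Sin3A shRNA against 8.22 to 8.27 with its scrambled shRNA. That of the neural list was 7.38 to 7.42 and 7.45 to 7.51, against 7.59 to 7.60, and 8.17 to 8.21 against 8.36 to 8.44. Among 10 fibroblast, 10 primitive endoderm and 9 mesoderm markers, at most 2 rose and 3 fell per list and hairpin. The fibroblast changes ran from -1.30 to 0.82, -1.25 to 0.81 and -0.58 to 0.09 with Tet1 shRNA 4, Tet1 shRNA 5 and Sin3A shRNA. In the same order the endoderm changes ran from -0.28 to 0.80, -0.41 to 0.83 and -0.86 to 0.45. Those of mesoderm ran from -0.14 to 0.06, -0.19 to 0.12 and -0.29 to 0.38. The part of other cell types in the results below was not tested, and in bulk samples fewer cells of a type and less RNA per cell cannot be told apart. Replicate arrays correlated with r of 0.994 to 0.998 across probe sets, but replicate 2 of scrambled shRNA and replicate 2 of Tet1 shRNA 4 stood apart, with deviations from the group means that correlated (r = 0.517). Same-numbered arrays of Tet1 shRNA 4 and scrambled shRNA deviated together in all 3 pairs (r = 0.274, 0.517 and 0.171). So did scrambled replicate 1 with shRNA 4 replicate 3 (r = 0.281) and scrambled replicate 3 with shRNA 4 replicate 1 (r = 0.162). The remaining pairs, each with a replicate 2, lay at -0.455 to -0.274. These values therefore cannot show that the numbers pair arrays. A paired fit of these 6 arrays is given wherever it changes a call, as it did for 3 markers. There Tdgf1 (adjusted p = 0.0504) and the trophoblast marker Gata3 (adjusted p = 0.0563) no longer passed, and the endoderm marker Dab2 did (-0.28, adjusted p = 0.0418). The labels do not say whether a group's arrays stem from separate cultures, and p-values therefore cover only the spread between arrays, possibly a technical one. Mean log2 values per array were 7.08 to 7.11 in the Tet1 set but 8.09 in the Sin3A set, so levels were compared only inside a set.

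Among the D-type cyclins, Ccnd2 had the widest range in each set. It encodes cyclin D2, and read 9.25, 9.31 and 9.23 with Tet1 shRNA 4 and 9.45, 9.61 and 9.67 with Tet1 shRNA 5, against 8.46, 8.51 and 8.62 with scrambled shRNA. Every array of both Tet1 hairpins lay above every scrambled array. The differences were 0.73 ± 0.07 (SE) for Tet1 shRNA 4 and 1.05 ± 0.07 for Tet1 shRNA 5, or 1.66-fold and 2.06-fold. With Sin3A shRNA the order was turned round, since Ccnd2 read 8.81, 8.82 and 8.64 there, against 9.87, 9.86 and 10.03 with its scrambled shRNA. It fell 2.24-fold (log2 change -1.16 ± 0.07, adjusted p = 7.0e-05), with no overlap between the groups.

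**Figure D1:**
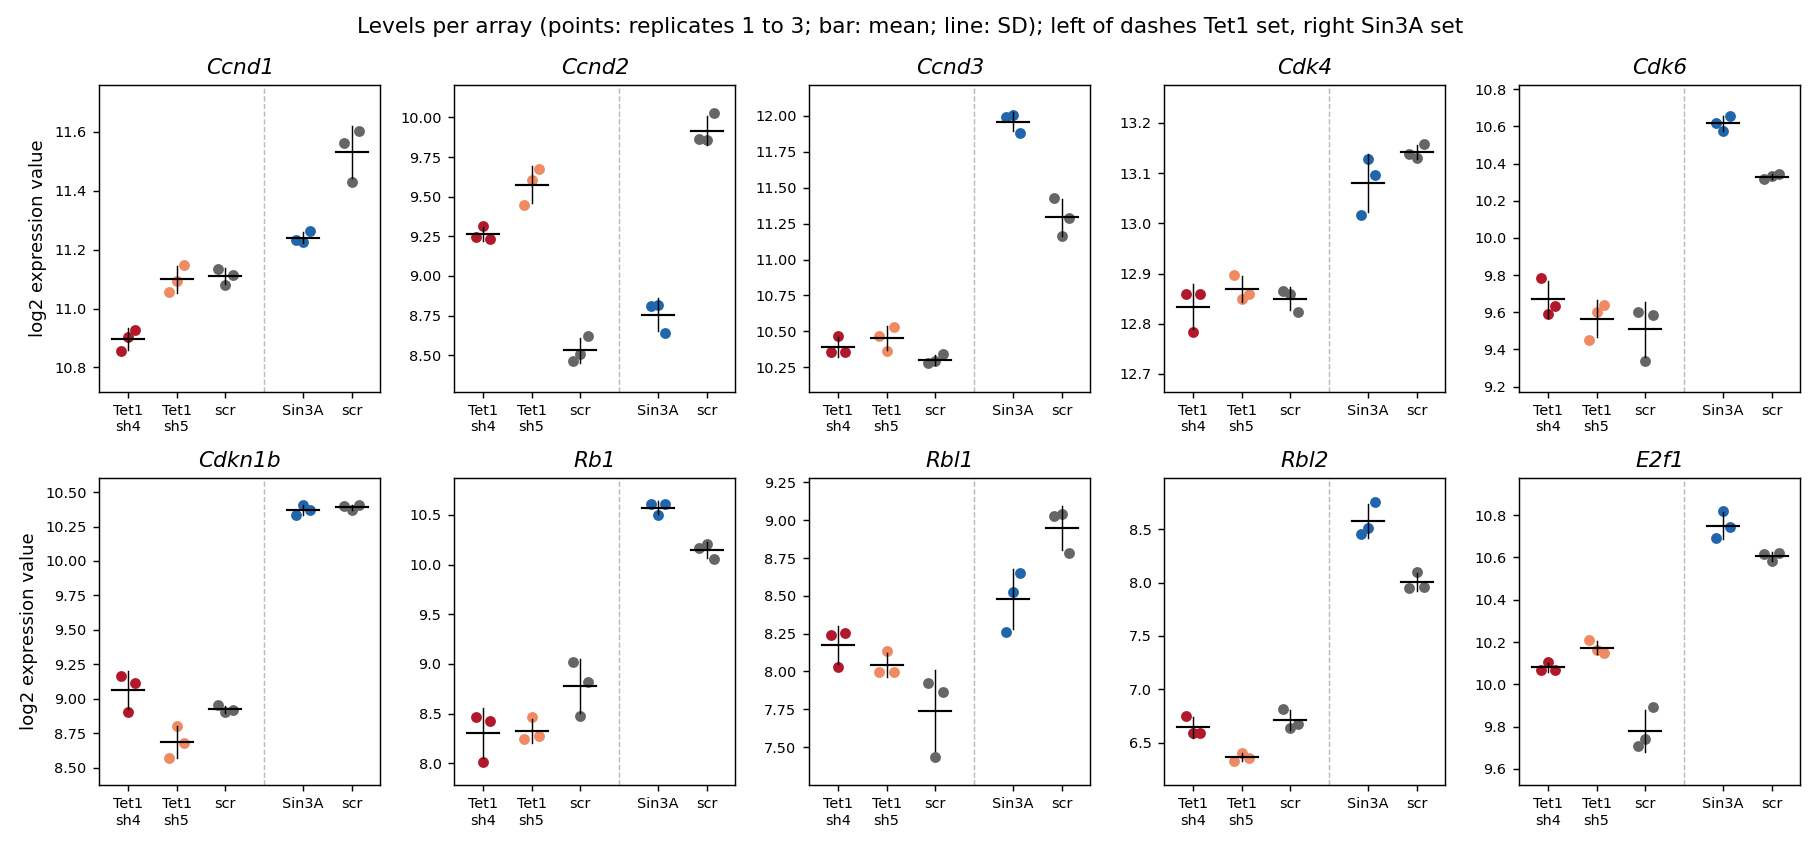
Log2 level of each of the 10 genes on every array, in 1 panel a gene with its own axis (points: replicates 1 to 3; bar: mean; line: SD). Hairpin groups stand left of their scrambled group (scr), and a dashed line parts the Tet1 set from the Sin3A set. Ccnd2 lies above scrambled on all arrays of both Tet1 hairpins and below scrambled on all 3 Sin3A shRNA arrays.

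Ccnd3, the most widely expressed D-type cyclin of adult tissues, rose under Sin3A shRNA. It read 11.99, 12.00 and 11.88 there, against 11.43, 11.16 and 11.29 with scrambled shRNA, so all 3 arrays lay above the controls. The rise was 1.59-fold (log2 change 0.67 ± 0.08, adjusted p = 0.00071). In the Tet1 set Ccnd3 read 10.35, 10.47 and 10.35 with Tet1 shRNA 4 and 10.47, 10.36 and 10.53 with Tet1 shRNA 5, against 10.28, 10.29 and 10.34 with scrambled shRNA. These arrays also lay above the controls, by 0.09 (95% interval -0.06 to 0.24, adjusted p = 0.474) and 0.15 (0.00 to 0.30, adjusted p = 0.181), and neither value passed the threshold of 0.05.

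Ccnd1, the D-type cyclin best known as a target of mitogen signalling, read 11.23, 11.23 and 11.26 with Sin3A shRNA, against 11.56, 11.43 and 11.60 with scrambled shRNA. It fell 1.22-fold (log2 change -0.29 ± 0.06, adjusted p = 0.0091), and the groups did not overlap. Under Sin3A shRNA Ccnd1 and Ccnd2 were therefore lower and Ccnd3 higher. With Tet1 shRNA 4 Ccnd1 read 10.86, 10.90 and 10.93, and with Tet1 shRNA 5 11.06, 11.09 and 11.15, against 11.14, 11.08 and 11.11 with scrambled shRNA. The change was -0.21 ± 0.05 for shRNA 4 (adjusted p = 0.033) and -0.01 (95% interval -0.13 to 0.11, adjusted p = 0.936) for shRNA 5. The shRNA 4 call was lost when any 1 of 6 arrays was left out, namely scrambled replicates 1 or 3, any shRNA 4 replicate or shRNA 5 replicate 2, with adjusted p-values of up to 0.124, and it did not pass in the paired fit (adjusted p = 0.0709). Between the hairpins themselves Ccnd1 differed by 0.20 (0.08 to 0.33, adjusted p = 0.259), which did not pass.

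Cdk6, a kinase partner of the D-type cyclins, read 10.62, 10.57 and 10.66 with Sin3A shRNA, against 10.32, 10.33 and 10.34 with scrambled shRNA, and all 3 arrays were above the controls. It rose 1.22-fold (log2 change 0.29 ± 0.05, adjusted p = 0.0042). In the Tet1 set its ranges overlapped, at 9.59 to 9.78 with Tet1 shRNA 4 and 9.45 to 9.64 with Tet1 shRNA 5, against 9.34 to 9.60 with scrambled shRNA (adjusted p = 0.339 and 0.766). Cdk4 lay between 12.78 and 12.90 on all 6 Tet1 hairpin arrays, against 12.82 to 12.87 with scrambled shRNA, and between 13.02 and 13.13 with Sin3A shRNA, against 13.13 to 13.16. Its 95% intervals were -0.13 to 0.10, -0.10 to 0.14 and -0.18 to 0.06 for the 3 hairpins in turn, and none reached beyond 0.14 above or -0.18 below its control.

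Cdkn1b encodes p27, which blocks cyclin-dependent kinases and also helps D-type cyclins assemble with theirs. Its levels were 8.57, 8.80 and 8.68 with Tet1 shRNA 5, below all scrambled arrays at 8.95, 8.90 and 8.92. The change of -0.24 ± 0.08 did not pass (adjusted p = 0.097). With Tet1 shRNA 4 the values were 9.16, 8.90 and 9.12, and the change was 0.14 (95% interval -0.05 to 0.33, adjusted p = 0.383). The direct contrast of Tet1 shRNA 5 with Tet1 shRNA 4 was -0.38 (-0.57 to -0.19, adjusted p = 0.168), the lowest value of the 10 genes there. Under Sin3A shRNA Cdkn1b differed from scrambled by -0.02 (-0.13 to 0.09, adjusted p = 0.825).

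All 3 pocket protein genes were called under Sin3A shRNA, where 12.2% of all probe sets rose and 12.6% fell, and not in 1 direction. Rb1, the retinoblastoma tumour suppressor, read 10.61, 10.50 and 10.61 there, against 10.17, 10.21 and 10.06 with scrambled shRNA, and rose 1.34-fold (0.43 ± 0.06, adjusted p = 0.0021). Rbl2, whose protein p130 pairs with E2F4 in resting cells, read 8.46, 8.51 and 8.76 with Sin3A shRNA, against 7.95, 8.10 and 7.96 with scrambled shRNA, and rose 1.49-fold (0.57 ± 0.09, adjusted p = 0.0025). Rbl1, whose protein p107 is itself made from an E2F-regulated gene in growing cells, read 8.26, 8.52 and 8.65 with Sin3A shRNA, against 9.03, 9.04 and 8.78 with scrambled shRNA. Rb1 and Rbl2 lay above their controls on every array and Rbl1 below. How often arrays part in this way among all probe sets was not counted, so nothing is read from it. Rbl1 fell 1.38-fold (-0.47 ± 0.11, adjusted p = 0.018). Leaving out scrambled replicate 1 (adjusted p = 0.0634) or scrambled replicate 2 (adjusted p = 0.0597) ended that call.

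Under the Tet1 hairpins the same 3 genes lay mostly on the other side of their controls. The scrambled arrays spread widely for Rb1 and Rbl1 (SD 0.27 each) and less for Rbl2 (SD 0.09). Rb1 read 8.47, 8.02 and 8.43 with Tet1 shRNA 4 and 8.25, 8.47 and 8.28 with Tet1 shRNA 5, against 9.02, 8.48 and 8.82 with scrambled shRNA. The changes of -0.47 ± 0.15 (adjusted p = 0.084) and -0.44 ± 0.15 (adjusted p = 0.092) did not pass. Rbl1 read 8.24, 8.03 and 8.25 with Tet1 shRNA 4 and 7.99 to 8.13 with Tet1 shRNA 5, against 7.93, 7.43 and 7.86 with scrambled shRNA. Its changes of 0.43 ± 0.12 (adjusted p = 0.053) and 0.30 ± 0.12 (adjusted p = 0.163) did not pass either. No hairpin array overlapped a scrambled one for Rb1 or Rbl1, a separation that was not counted over all probe sets. In the paired fit of Tet1 shRNA 4, whose pairing is not established, both genes passed. Rb1 was lower (-0.47 ± 0.06, adjusted p = 0.0075) and Rbl1 higher (0.43 ± 0.07, adjusted p = 0.0168). The lowest scrambled value of both genes was replicate 2, an array that stood apart. Without it and replicate 2 of Tet1 shRNA 4, the change of Rb1 was -0.47 (adjusted p = 0.0238) with shRNA 4 and -0.59 (adjusted p = 0.00545) with shRNA 5, and that of Rbl1 was 0.35 (adjusted p = 0.0181) with shRNA 4 and 0.15 (adjusted p = 0.178) with shRNA 5.

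Rbl2 read 6.33, 6.40 and 6.36 with Tet1 shRNA 5, below all scrambled arrays at 6.81, 6.64 and 6.67, and it fell 1.27-fold (-0.35 ± 0.07, adjusted p = 0.0099). With Tet1 shRNA 4 it read 6.75, 6.59 and 6.59, overlapping the controls, and the change was -0.07 (95% interval -0.23 to 0.09, adjusted p = 0.655). The hairpins differed by -0.28 (-0.44 to -0.12, adjusted p = 0.236), a difference that did not pass. Rbl2 lay below the median probe set here, at percentile 46.1 with scrambled shRNA, 45.3 with Tet1 shRNA 4 and 40.7 with Tet1 shRNA 5. The filter on dim probe sets left it out of the Tet1 set, so its call was not tested under that filter.

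E2f1, the activator that pocket proteins hold back, read 10.07, 10.10 and 10.07 with Tet1 shRNA 4 and 10.21, 10.16 and 10.15 with Tet1 shRNA 5, against 9.71, 9.74 and 9.89 with scrambled shRNA. All hairpin arrays lay above the controls, by 0.30 ± 0.06 and 0.39 ± 0.06, or 1.23-fold and 1.31-fold. With Sin3A shRNA E2f1 read 10.69, 10.82 and 10.74, against 10.62, 10.58 and 10.62, again without overlap. That difference of 0.14 ± 0.05 did not pass (adjusted p = 0.085).

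The 2 genes higher with Tet1 shRNA 4, with Tet1 shRNA 5 and with both were Ccnd2 and E2f1, whose changes were known when the genes were chosen, so nothing is read from these counts. Over all probe sets 6.88%, 8.37% and 5.4% were higher in the same order. The 1 gene lower was Ccnd1 with Tet1 shRNA 4 and Rbl2 with Tet1 shRNA 5, with 0 lower in both, where 4.71%, 5.46% and 3.4% of all probe sets were lower. Both comparisons share the same 3 scrambled arrays. With neither array that stood apart, 2 genes were higher and 2 lower with each Tet1 hairpin, and E2f1 no longer passed with shRNA 4. The paired fit of shRNA 4 called Rbl1 higher and Rb1 lower, beside the known changes of Ccnd2 and E2f1. These counts hold known changes too, and nothing is read from them. Under Sin3A shRNA 4 rose (Ccnd3, Cdk6, Rb1 and Rbl2) and 3 fell (Ccnd1, Ccnd2 and Rbl1), where 12.2% of all probe sets rose and 12.6% fell. None of the 10 was called between the Tet1 hairpins, a limma contrast that called 0.141% of all probe sets, and 4 of them (Ccnd1, Ccnd2, Cdkn1b and Rbl2) had an unadjusted p under 0.05 there. The median change over the 10 genes was 0.11 with Tet1 shRNA 4, 0.04 with Tet1 shRNA 5 and 0.06 with Sin3A shRNA, where the medians over all probe sets were -0.0032, -0.0044 and 0.0063.

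**Figure D2:**
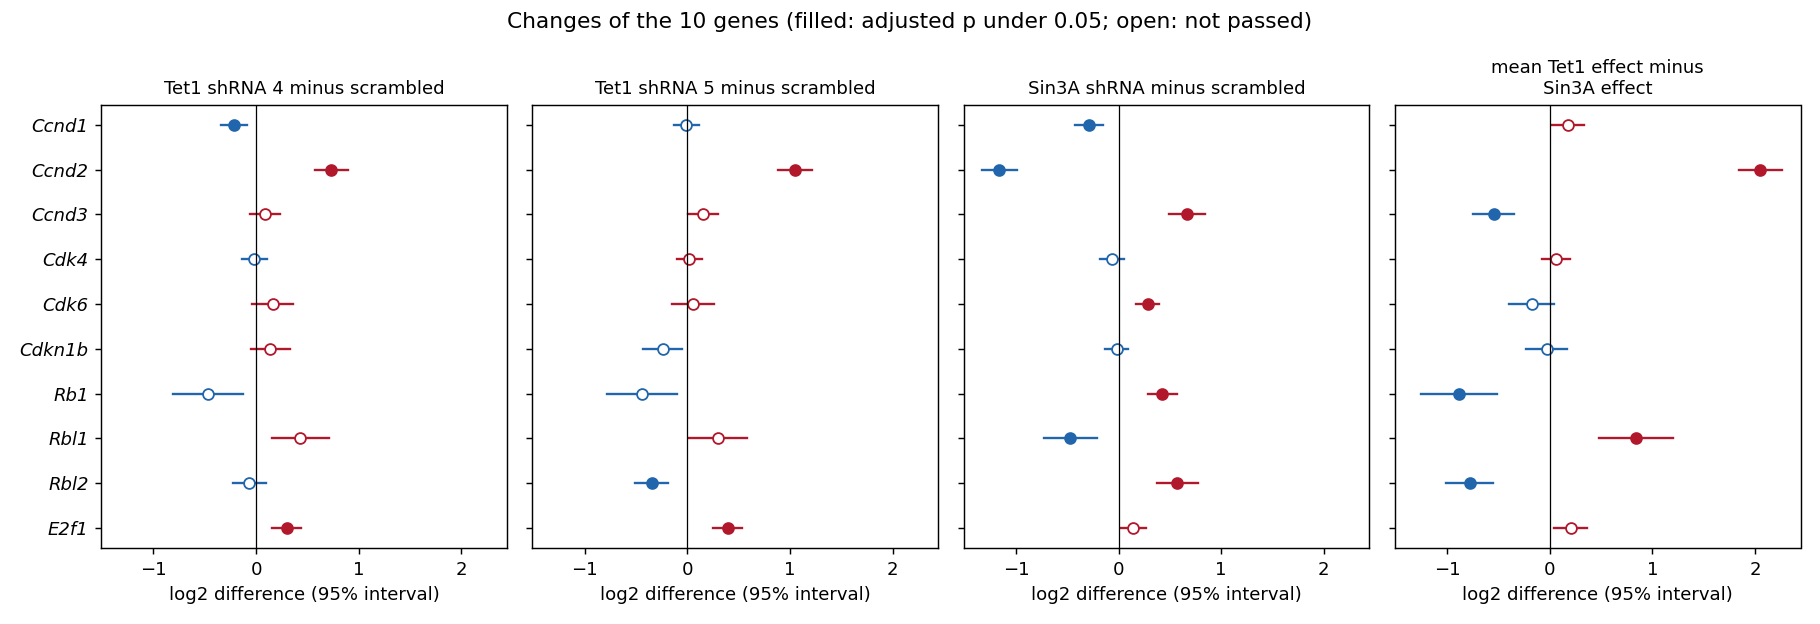
Log2 difference of each gene with its 95% interval for Tet1 shRNA 4, Tet1 shRNA 5 and Sin3A shRNA, each minus its scrambled shRNA, and for the mean Tet1 effect minus the Sin3A effect. Filled points have an adjusted p under 0.05 and open points do not. The Tet1 changes of Ccnd2 and E2f1 were known when the genes were chosen. Their points under the Tet1 hairpins and in the difference are descriptions, filled or not. Ccnd2 stands at 0.73 and 1.05 under the Tet1 hairpins, at -1.16 under Sin3A shRNA and at 2.05 in the difference.

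The mean of both Tet1 effects was then set against the Sin3A effect in a fit of all 15 arrays, in which 11.3% of all probe sets were higher and 8.71% lower. Of the 10 genes 2 were higher, Ccnd2 and Rbl1, and 3 lower, a count that holds the known change of Ccnd2 and from which nothing is read. The difference for Ccnd2 was 2.05 ± 0.10, given as a description. Rbl1 differed by 0.84 ± 0.17 (adjusted p = 0.0025), Rb1 by -0.88 ± 0.17 (adjusted p = 0.0019), Rbl2 by -0.78 ± 0.11 (adjusted p = 0.00013) and Ccnd3 by -0.55 ± 0.09 (adjusted p = 0.00075). All 3 pocket protein genes thus differed between the Tet1 and Sin3A knockdowns, Rbl1 towards higher under Tet1 knockdown and Rb1 and Rbl2 towards lower. Without both arrays that stood apart these 3 differences were 0.72, -0.96 and -0.80, and each still passed. The difference of Rbl2, which lay below the median probe set in the Tet1 set, was not tested under the filter on dim probe sets. Ccnd1 (0.18, 95% interval 0.02 to 0.33, adjusted p = 0.101), Cdk6 (-0.18, -0.39 to 0.04, adjusted p = 0.263) and Cdkn1b (-0.03, -0.23 to 0.17, adjusted p = 0.863) did not pass.

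Other genes of the pathway were counted in 9 lists. Their counts stand beside 6.88% higher and 4.71% lower among all probe sets with Tet1 shRNA 4, 8.37% and 5.46% with Tet1 shRNA 5, and 12.2% and 12.6% with Sin3A shRNA, as do those of the marker lists above, and no count is read as particular to its list. Of 9 E2F and DP genes 1 rose with Tet1 shRNA 4, 3 rose with Tet1 shRNA 5, and 3 rose and 2 fell with Sin3A shRNA. E2f2, an activator like E2f1, rose with both Tet1 hairpins (0.34, adjusted p = 0.0209, and 0.44, adjusted p = 0.0051) and with Sin3A shRNA (0.50, adjusted p = 0.00060), and its shRNA 4 call was lost without scrambled replicates 1 or 3 or shRNA 4 replicate 2 (adjusted p up to 0.0699). Tfdp1, the DP partner that E2F proteins need to bind DNA, fell with Sin3A shRNA (-0.55, adjusted p = 0.00023). It was higher with Tet1 shRNA 5 (0.23, adjusted p = 0.0294, up to 0.0926 without any 1 of 5 single arrays). That call was also lost without both arrays that stood apart and with a replicate block. The Tfdp1 difference between the knockdowns was 0.71 (adjusted p = 5.9e-06). E2f8, an atypical repressor of the family, rose with Sin3A shRNA (0.41, adjusted p = 0.00084). E2f5, a partner of p130, was called with Tet1 shRNA 5 (0.28) and Sin3A shRNA (0.20) and E2f4 with Sin3A shRNA (-0.16), and each of these calls was lost when single arrays were left out (adjusted p up to 0.163, 0.167 and 0.152).

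Of 22 E2F-regulated replication genes 2 rose and 0 fell with Tet1 shRNA 4, 3 rose and 0 fell with Tet1 shRNA 5, and 3 rose and 0 fell with Sin3A shRNA. Gins2, a subunit of the replicative helicase, rose with all 3 hairpins, by 0.36 (adjusted p = 0.0048), 0.47 (adjusted p = 0.0010) and 0.64 (adjusted p = 0.00057). Rrm1, the large subunit of ribonucleotide reductase, rose with Tet1 shRNA 5 (0.37, adjusted p = 0.0030), and its call with Tet1 shRNA 4 (0.22, adjusted p = 0.0432) was lost under 14 of 18 alternatives, leaving out single arrays (adjusted p up to 0.137) and the paired fit (0.0678) among them. Tk1, the thymidine kinase gene, passed with Tet1 shRNA 4 in the paired fit (0.25, adjusted p = 0.0409, against 0.142 unpaired). Cdc6, which loads the helicase at origins, rose with Tet1 shRNA 5 (0.34, adjusted p = 0.0087). The remaining calls, Slbp (0.30) and Mcm4 (0.17) under Sin3A shRNA, were each lost when single arrays were left out, with adjusted p-values of up to 0.133 and 0.108.

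Of 6 cyclin E and cyclin A group genes limma called 0 with either Tet1 hairpin (1 with shRNA 4 and 2 with shRNA 5 at an unadjusted p under 0.05, and Ccna1, 0.27, with an adjusted p of 0.0389 in the paired fit of shRNA 4), and Ccne1, the cyclin that takes over from the D-type cyclins late in G1, rose with Sin3A shRNA (0.30, adjusted p = 0.0046). Of 5 cyclin-dependent kinase inhibitors other than p27, Cdkn1c, which encodes p57 and is an imprinted gene, fell with Tet1 shRNA 4 (-0.49, adjusted p = 0.0047) and with Sin3A shRNA (-0.62, adjusted p = 0.00041). With Tet1 shRNA 5 its change was -0.08 and did not pass (adjusted p = 0.636). Cdkn1a, which encodes p21, fell with Tet1 shRNA 5 (-0.28, adjusted p = 0.0113). Cdkn2c, which encodes the CDK4 and CDK6 inhibitor p18, was higher with Sin3A shRNA (0.51, adjusted p = 0.0170), a call lost without scrambled replicates 1 or 3 (adjusted p up to 0.0577). Cdkn2c was dim, at a mean of 6.74 with scrambled shRNA, and the filter on dim probe sets left it out of the Sin3A set. Of 14 mitotic genes 1 rose with Tet1 shRNA 4, 4 rose and 1 fell with Tet1 shRNA 5, and 2 rose and 1 fell with Sin3A shRNA. The kinase gene Nek2 accounted for the shRNA 4 call (0.26) and was also called with shRNA 5 (0.28), and both calls were lost when single arrays were left out (adjusted p up to 0.145 and 0.101). The call of Cdk1, the mitotic kinase, with Tet1 shRNA 5 (0.21) and that of Aurka with Sin3A shRNA (-0.25) were lost in the same way (adjusted p up to 0.0861 and 0.0504). Mki67, a marker of cycling cells, rose with Sin3A shRNA (0.40, adjusted p = 0.0016) and was lower with Tet1 shRNA 5 (-0.39, adjusted p = 0.0261, up to 0.0977 without any 1 of 4 single arrays), and the knockdowns differed by -0.68 (adjusted p = 0.00060). Cenpf, a kinetochore protein, rose with Sin3A shRNA (0.38, adjusted p = 0.0069), and Birc5, which encodes survivin, rose with Tet1 shRNA 5 (0.31, adjusted p = 0.0109).

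Of 10 transcription factors that answer growth signals, 1 rose and 2 fell with each Tet1 hairpin, and 4 rose and 2 fell with Sin3A shRNA. Myc rose with Tet1 shRNA 4 (0.36, adjusted p = 0.0045) and Tet1 shRNA 5 (0.60, adjusted p = 0.00026), and Mycn fell (-0.66, adjusted p = 0.00024, and -0.31, adjusted p = 0.0126, the second 0.0508 without shRNA 5 replicate 3). Both differed from the Sin3A effect, by 0.36 (adjusted p = 0.0033) and -0.39 (adjusted p = 0.0026). Egr1, an early growth-response factor, fell with Tet1 shRNA 5 (-0.82, adjusted p = 0.00018) and Sin3A shRNA (-0.39, adjusted p = 0.0108), and its call with Tet1 shRNA 4 (-0.29, adjusted p = 0.0436) was lost under 11 of 18 alternatives, leaving out single arrays among them (adjusted p up to 0.155). Junb (0.50, adjusted p = 0.0033) and Fosl1 (0.47, adjusted p = 0.0085), members of the AP-1 family, rose with Sin3A shRNA, while the Fos call (0.57, adjusted p = 0.0278) was lost when any 1 of 4 arrays was left out (adjusted p up to 0.0966), and that of Rela (-0.20), an NF-kB subunit, when any array was (adjusted p up to 0.143). The filter on dim probe sets left Fos out of the Sin3A set.

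Of 13 genes of cyclin D turnover and kinase assembly 0 were called by limma with Tet1 shRNA 4 (1 at an unadjusted p under 0.05), 1 rose with Tet1 shRNA 5 (Ccnh, 0.40, adjusted p up to 0.136 without single arrays), and 1 rose and 3 fell with Sin3A shRNA. Cdc37, the co-chaperone that brings kinases such as CDK4 to HSP90, fell with Sin3A shRNA (-0.29, adjusted p = 0.0088). Fbxo4 (-0.26) and Cul1 (-0.22), parts of ubiquitin ligases, and Ccnh (0.22) of the CDK-activating kinase were called with Sin3A shRNA, and each call was lost when single arrays were left out (adjusted p up to 0.0701, 0.0900 and 0.0849). Fbxo4 was also left out of the Sin3A set by the filter on dim probe sets. Of 7 genes of the MuvB, MYB and FOXM1 group, which regulate late cell cycle genes, Lin54 rose with Sin3A shRNA (0.31, adjusted p = 0.0071) and limma called 0 with either Tet1 hairpin (0 with shRNA 4 and 2 with shRNA 5 at an unadjusted p under 0.05). Of 7 chromatin genes whose products bind RB1, Arid4a rose with Sin3A shRNA (0.34, adjusted p = 0.0092). Arid4b was called there too (0.32, adjusted p = 0.0236, up to 0.0773 without any 1 of 4 single arrays), and limma called 0 of the 7 with either Tet1 hairpin, also 0 at an unadjusted p under 0.05. Median changes of the 9 lists lay between -0.07 and 0.06 with Tet1 shRNA 4, -0.14 and 0.13 with Tet1 shRNA 5, and -0.13 and 0.10 with Sin3A shRNA.

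**Figure D3:**
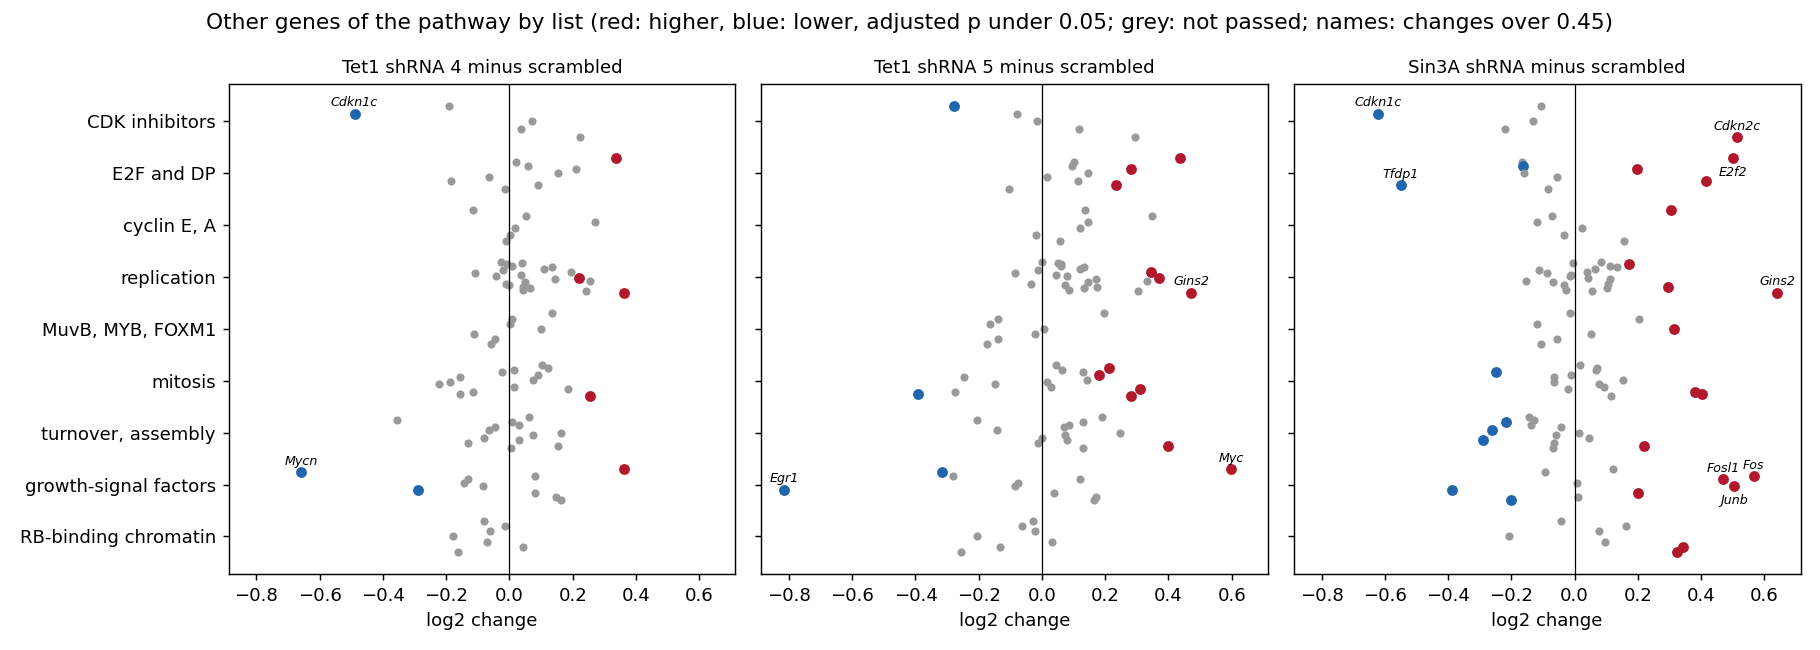
Log2 change of each gene of the 9 pathway lists (rows) for Tet1 shRNA 4, Tet1 shRNA 5 and Sin3A shRNA, each minus its scrambled shRNA. Red points were higher and blue points lower with an adjusted p under 0.05, grey points did not pass, and called genes with changes over 0.45 are named. Gins2 lies to the right of 0 in all 3 panels, at 0.36, 0.47 and 0.64, and Tfdp1 at -0.55 under Sin3A shRNA.

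Genes with a pattern like that of a member were sought among 18147 genes by the root mean square difference of log2 deviations from the scrambled mean, over all 15 arrays. For Ccnd2 the closest were Slc4a5 (0.172), Unc5b (0.226) and Klk10 (0.257), where the deviation of Ccnd2 itself was 0.776. Slc4a5, a bicarbonate transporter, stood at 0.90 with both Tet1 hairpins and -0.97 with Sin3A shRNA. Unc5b, a netrin receptor, stood at 0.47, 0.86 and -0.82. For Ccnd3 the closest were Arhgap39, Syk and Stk36 (0.0786 to 0.0864, where Ccnd3 deviated by 0.315), for Ccnd1 they were Patz1, Hr and Secisbp2 (0.0633 to 0.0697, against 0.167), and for E2f1 they were Spryd4, B4galt5 and Dennd2a (0.0522 to 0.0576, against 0.235). The likeness describes these 15 arrays, and both Tet1 hairpins share their scrambled controls.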

How the data were processed

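Total RNA was hybridised to Affymetrix whole-transcript arrays with 1 array for each sample, as the labels' protocols describe. The deposited table holds log2 expression values made by the authors, and the submitters' processing notes name affy, RMA and limma without versions. RMA corrects background, quantile-normalizes and summarises probes. Array means were 7.08 to 7.11 in the Tet1 set, so its arrays do not share one distribution exactly. In 49.1% of probe sets of the Tet1 set at least a pair of arrays held the same value, and in 0 of the Sin3A set. Arrays carry no read depth, and their number limits the precision.

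Groups came from the sample titles. Models were fitted to the deposited log2 values with lmFit and eBayes of limma 3.58.1 (R 4.3.3), two-sided, over all 21212 probe sets with Benjamini-Hochberg adjustment and a threshold of 0.05, which also defines a call. The 9 Tet1-set arrays entered 1 fit, the 6 Sin3A-set arrays another, and all 15 a further one for the difference between knockdowns. The scripts were tested on simulated data. Members and lists were chosen with earlier results of these data known. Named genes are the 10 members, the knockdown targets, up to 3 called genes per list, direction and comparison, and the 3 nearest patterns for Ccnd1, Ccnd2, Ccnd3 and E2f1. Of 158 list symbols 150 matched. Alternatives were normalization, a filter on dim probe sets, variance settings, a replicate block and left-out arrays. Whether replicate numbers pair arrays was checked: deviations of same-numbered arrays correlated at 0.274, 0.517 and 0.171 between Tet1 shRNA 4 and scrambled shRNA, and in every other comparison at least 1 of the 3 was below 0. For Tet1 shRNA 4 a paired fit of its 6 arrays was therefore added after seeing the data. The pairing comes from the data, since the labels give only the number. Differently numbered pairs of replicates 1 and 3 of these groups also correlated above 0 (0.281 and 0.162). The correlations therefore cannot show that the numbers pair arrays.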

Additional observations from a re-analysis of the deposited data

Results flagged for a closer look

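The Tet1 and Sin3A effects differed from each other in Ccnd3, Rb1, Rbl1 and Rbl2, by the test of the difference in the fit of all 15 arrays, which called 11.3% of all probe sets higher and 8.71% lower. The mean Tet1 effect minus the Sin3A effect was -0.55 for Ccnd3, -0.88 for Rb1, 0.84 for Rbl1 and -0.78 for Rbl2. For Ccnd2 it was 2.05, a description, since its Tet1 changes were known when the genes were chosen. For Ccnd3, Rb1 and Rbl1 neither Tet1 effect passed by itself in the unpaired fit of all 9 arrays, and for Rbl2 only that of shRNA 5 did. The Ccnd3 changes under the Tet1 hairpins (0.09 and 0.15) had the same sign as its Sin3A change (0.67). Scrambled replicate 2, which stood apart, held the lowest control value of Rb1 and Rbl1. Rbl2 lay below the median probe set in the Tet1 set. Each knockdown lies in a set of its own, so knockdown and set cannot be told apart in these differences beyond the scrambled control that each set carries.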

How the results depend on the processing

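Counts below that include Tet1 comparisons hold the changes of Ccnd2 or E2f1 known beforehand, so nothing is read from them. Of the 18 calls among the 10 genes, 285 of 297 recomputed values kept both call and direction, 12 lost the call and 0 changed direction. The lost ones were Ccnd1 with Tet1 shRNA 4 (9 of 18 alternatives), E2f1 with Tet1 shRNA 4 (1, with neither array that stood apart) and Rbl1 with Sin3A shRNA (2 of 12). The count of called genes with Tet1 shRNA 4 was 3 as deposited and 5 with repeated quantile normalization, 5 among probe sets above the median and 5 with array weights. Calls over all probe sets moved too, from 2459 of 21212 as deposited to 2685 with repeated quantile normalization and 2715 of the 10606 above the median. With Tet1 shRNA 5 the count was 3 as deposited, and 5 with repeated quantile normalization and with array weights. Repeated quantile normalization called 3008 of all probe sets there, against 2934 as deposited. Rbl2 was not among the Tet1-set probe sets above the median, so that filter gave no value for its Tet1 shRNA 5 call. Between the hairpins the count was 0, and 2 (Cdkn1b and Rbl2) with array weights. Leaving out single arrays gave 2 to 4 genes for Tet1 shRNA 4, 3 to 4 for Tet1 shRNA 5, 0 between the hairpins, 6 to 7 for Sin3A shRNA and 5 to 6 for the difference between knockdowns. Over all probe sets the calls then numbered 1662 to 2633, 2004 to 3077, 0 to 36, 3359 to 4944 and 3408 to 4511. With a replicate block in the fits of each whole set the counts were 2, 3, 0, 7 and 5 in the same order, and the block ended the call of Ccnd1 with Tet1 shRNA 4 (adjusted p = 0.0649) and no other among the 10. The block left 2290, 2784, 0, 4111 and 3723 calls over all probe sets. The paired fit of Tet1 shRNA 4 and scrambled shRNA alone gave 4 genes and 2748 calls over all probe sets. Array weights raised the called probe sets to 4554 from 2459 for Tet1 shRNA 4, 5046 from 2934 for Tet1 shRNA 5, 305 from 30 between the hairpins, 8305 from 5261 for Sin3A shRNA and 7427 from 4241 for the difference. Each gene had 1 probe set, so taking another gave no value. The paired fit, the alternatives for list genes and both left-out arrays were chosen after seeing the data. The causes of these changes were not tested, and 3 arrays a group limit the precision.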
